A study of Canis lupus familiaris with 6 samples.

Results

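ADAM proteases (a disintegrin and metalloproteinase) are membrane-anchored enzymes that cut the outer part off other membrane proteins, a step called ectodomain shedding, and so release growth factors, cytokines and adhesion molecules from the cell surface. ADAMTS proteases carry thrombospondin motifs, are secreted and act on the extracellular matrix: some cut the large proteoglycans aggrecan and versican, some trim procollagens and some act on fibrillin fibres or on von Willebrand factor. Several ADAM members lack the zinc-binding catalytic motif and work as adhesion proteins, and ADAMTS-like proteins have the matrix-binding parts of ADAMTS without a protease domain. In epithelia ADAM10 and ADAM17 are the main sheddases, with E-cadherin and the ligands of the EGF receptor among their substrates.

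The family was taken as every non-control probe of the array whose gene name begins with ADAM, which gave 43 probes for 29 gene names, of 43603 probes for 34378 names. ADAMTS1, with 2 probes, was set against the other 41 probes.
The cells were MDCK-pTR GFP-RasV12, a derivative of the Madin-Darby canine kidney (MDCK) epithelial line in which tetracycline switches on GFP-tagged RasV12. They were grown on collagen-coated dishes either alone (3 samples) or mixed with normal MDCK cells (3 samples), and both kinds of culture received tetracycline for 24 h. The cells positive for GFP were then sorted, and their RNA was hybridised to 1-colour Agilent canine arrays, 1 array for each sample. Normal MDCK cells outnumbered RasV12 cells 10 to 1 in mixed replicates 1 and 3. For mixed replicate 2 the sample label reads 100 to 1, while the methods state the former ratio for mixed culture in general. The extraction text of all 6 samples names cells that also carry mCherry-β-catenin Δ131. The source names, the treatment text and the paper's description of the arrays all give RasV12 cells without it, and that description is followed here. The comparison asks what RasV12 cells express differently when normal cells surround them.

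Cells alone and mixed cells were hybridised on separate slides, 1 for each group, and an effect of the slide therefore cannot be told apart from one of the culture. The 75th percentile of the intensities, to which each array was scaled, was 592 to 700, and 60.8% to 66.4% of probes were well above background by the scanner software's test. Testing was limited to probes that reached this level on all 3 arrays of one group or of both. Of the epithelial markers 13 of 14 probes could be tested, and CDH1, EPCAM and KRT18 were well above background on all 6 arrays. PTPRC and LYZ of the leukocytes, CDH5 and TEK of the endothelium and COL3A1 and PDGFRA of mesenchymal cells were not well above background on any array.
Of 15 probes for genes that Ras-MAPK signalling switches on, 3 were called lower in mixed culture (CCND1, EPHA2 and FOSL1) and 0 higher, where 5.72% and 5.50% of all tested probes were called lower and higher. The median log2 difference of the 15 was -0.34, with 11 below 0 and 4 above it (both probes of SPRED1, SPRY2 and ETV5, none called). Their summed level, in units of each array's 75th percentile, was 193 to 198 in cells alone and 154 to 175 in mixed culture. Most of that sum came from 4 probes of DUSP6, none of them called, and without them it was 36.1 to 45.2 in cells alone and 31.3 to 34.9 in mixed culture. Whether unsorted normal MDCK cells had a part in the results below was not tested. In RNA from a sorted population, fewer cells that express a gene and less of its RNA per cell cannot be told apart.

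Between culture alone and mixed culture, 3 genes of the family passed the test. ADAMTS1 and ADAMTS9, both of which cut versican, rose in mixed culture, the former with a difference among the 10 highest on the array, and ADAMTS6 fell. The sheddases ADAM9, ADAM10, ADAM15 and ADAM17 differed little in either direction and were not called. The sequences of the 5 probes that passed are shown first, since the 2 genes with 2 probes each were measured at 2 separate genomic positions. They are given 5′ to 3′ as the array carries them, all in lower case because no part of them is singled out, and their positions are those of the array's annotation in canFam3.
ADAMTS1, A_11_P0000031254, chr31:22171184-22171243, minus strand: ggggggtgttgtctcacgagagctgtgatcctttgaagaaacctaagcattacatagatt
ADAMTS1, A_11_P174723, chr31:22170639-22170698, minus strand: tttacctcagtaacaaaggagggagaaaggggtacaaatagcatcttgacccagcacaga
ADAMTS9, A_11_P075336, chr20:26729887-26731817, plus strand: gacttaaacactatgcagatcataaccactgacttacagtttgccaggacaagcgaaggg
ADAMTS6, A_11_P102551, chr2:50955854-50955910, minus strand: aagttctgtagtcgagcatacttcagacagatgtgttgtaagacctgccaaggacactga
ADAMTS6, A_11_P117916, chr2:50952864-50952923, minus strand: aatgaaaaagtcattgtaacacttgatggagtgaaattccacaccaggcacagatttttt
Each probe is 60 bases long, and the 2 ADAMTS1 probes lie 485 bases apart, both assigned to the transcript ENSCAFT00000013624. The 2 ADAMTS6 probes lie 2930 bases apart and are assigned to ENSCAFT00000011810 and XM_005617441. The annotated span of the first, A_11_P102551, is 57 bases, shorter than the probe itself. The ADAMTS9 probe, assigned to ENSCAFT00000010923, covers a span of 1931 bases, longer than the probe itself. Which exon or untranslated region each probe lies in was not analysed here.

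ADAMTS1 is a secreted proteoglycanase that cuts aggrecan and versican. At the probe A_11_P0000031254 its processed intensity was 20.5, 30.2 and 30.4 in RasV12 cells alone (replicates 1 to 3) and 129.8, 448.2 and 470.6 in mixed culture. Every mixed array lay far above every alone array, and in each group replicate 1 was the lowest. After scaling to the 75th percentile the log2 difference, mixed minus alone, was 3.57 (SE 0.50, 95% interval 2.37 to 4.77), or 11.9-fold, with an adjusted p of 0.0177 (limma, two-sided, Benjamini-Hochberg over all 26535 probes tested). All 6 arrays measured it well above background, and its difference ranked 8 from the top of the 26535.
At the second probe, A_11_P174723, the intensity was 6.3, 14.1 and 16.4 in cells alone and 63.4, 186.6 and 178.1 in mixed culture. The groups were again apart, but only the last of the 3 alone arrays was well above background. The probe could be tested only because the mixed group was high, and the fitted log2 difference of 3.57 (SE 0.51, 95% interval 2.34 to 4.79, adjusted p = 0.0183, limma) rests in part on dim values. A dim value that lay below the lowest intensity well above background on its array was raised to it, which applied to alone replicate 1. The difference was then 3.22, or 9.33-fold. The second probe is therefore a description and not a further test of the first.
By replicate number, the log2 differences were 2.64, 4.0 and 4.08 at the first probe. Replicate 1 thus gave the smallest difference, and mixed culture was higher at each of the 3 replicate numbers. When 1 array was left out, the difference stayed between 3.21 and 4.19 at the first probe and between 3.18 and 4.08 at the second. The adjusted p nevertheless rose to 0.0758, 0.0784, 0.0783 and 0.0788 at the first probe, and to 0.0748, 0.0747, 0.0799 and 0.0845 at the second, without alone replicate 2, alone replicate 3, mixed replicate 2 and mixed replicate 3 in turn (limma). Under normexp background correction the differences were smaller, 2.23 and 1.41, and both were still called.

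**Figure D1:**
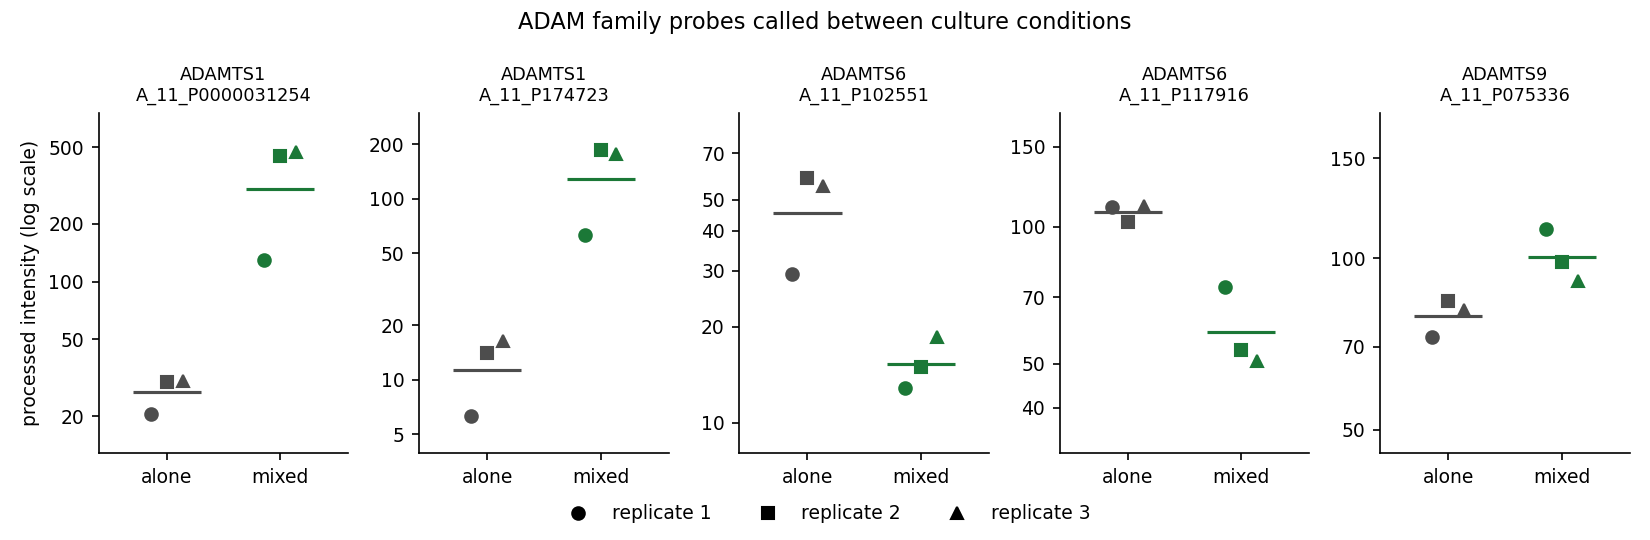
Processed intensity of the 5 called probes on each array (log axis, one scale for each panel, not comparable between panels). Points are arrays, with shape giving the replicate number, and lines are geometric means of 3 arrays: for ADAMTS1 the mixed arrays read at least 63.4 and the alone arrays at most 30.4, for ADAMTS6 the mixed arrays lie below the alone arrays at both probes, and the ADAMTS9 groups are separate but close.

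ADAMTS6 acts on fibrillin fibres. At A_11_P102551 its intensity was 29.2, 58.5 and 55.1 in cells alone and 12.8, 15.0 and 18.5 in mixed culture. All mixed arrays lay below all alone arrays, and the first 2 of them were not well above background. The log2 difference was -1.51 (SE 0.27, 95% interval -2.15 to -0.86, adjusted p = 0.0246, limma). Raised in the same way, which applied to mixed replicate 1, it was -1.44, which corresponds to a level 2.72-fold lower. This probe too could be tested only through the group where it was high.
At A_11_P117916 the intensity was 110.6, 102.4 and 111.4 in cells alone and 73.9, 53.5 and 50.8 in mixed culture. Here all 6 arrays were well above background, and the groups did not overlap. The log2 difference was -0.82 (SE 0.16, 95% interval -1.19 to -0.44, adjusted p = 0.0279, limma). This difference ranked 329 from the bottom of the 26535.
Without alone replicate 2, alone replicate 3, mixed replicate 2 and mixed replicate 3 in turn the adjusted p was 0.0962, 0.0967, 0.0975 and 0.0830 at the first ADAMTS6 probe and 0.0837, 0.107, 0.103 and 0.113 at the second, and without mixed replicate 1 it was 0.0619 at the first (limma). Normexp background correction gave -0.43 and -0.38, both still called.

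ADAMTS9 cuts versican and aggrecan, as ADAMTS1 does. Its probe read 72.8, 84.2 and 81.2 in cells alone and 112.5, 98.7 and 91.4 in mixed culture. In these unscaled intensities the lowest mixed value was above the highest alone value by less than the spread within the mixed group. After scaling, the log2 levels were -3.09 to -2.99 in cells alone and -2.72 to -2.49 in mixed culture, and there the gap was not smaller than that spread. The log2 difference of 0.41 (SE 0.09, 95% interval 0.20 to 0.62, adjusted p = 0.0357, limma), or 1.33-fold, was the third highest of the family, far below that of ADAMTS1.
With the replicate number as a block ADAMTS9 was not called (adjusted p = 0.0562, limma), nor was it with the arrays scaled to the spike-in controls, where the log2 difference was 0.25 (adjusted p = 0.261). It was also lost without alone replicate 2 (adjusted p = 0.126), alone replicate 3 (0.108), mixed replicate 1 (0.0580), mixed replicate 2 (0.0976) or mixed replicate 3 (0.115).

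In counts, 22 of the 43 probes could be tested, for 14 of the 29 genes. Of these 22, 5 were called (22.7%), against 11.2% of all tested probes. There were 3 higher (the 2 ADAMTS1 probes and ADAMTS9), where 5.50% of all tested probes were higher, and 2 lower (both ADAMTS6), where 5.72% of all were lower. The 5 probes belong to 3 genes, and 2 of them (A_11_P174723 and A_11_P102551) passed the filter only through the group where they were high. Among probes well above background on each of the 6 arrays, 3 of the family's 20 were called, against 11.9% of all such probes. For 7 of the 22 probes the mixed and alone arrays did not overlap, against 37.2% of all tested probes, so that by this count the family was close to the rest of the array.
The median log2 difference of the 22 probes was -0.04, and the median size of the difference, without its sign, was 0.11, against 0.17 over all tested probes. Without ADAMTS1 the 20 remaining probes ran from -1.51 to 0.41 with a median of -0.05. ADAMTS1 thus stood apart from its own family, with the next highest difference that of ADAMTS9. Beyond the called probes, the other 17 lay between -0.48 and 0.23.

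**Figure D2:**
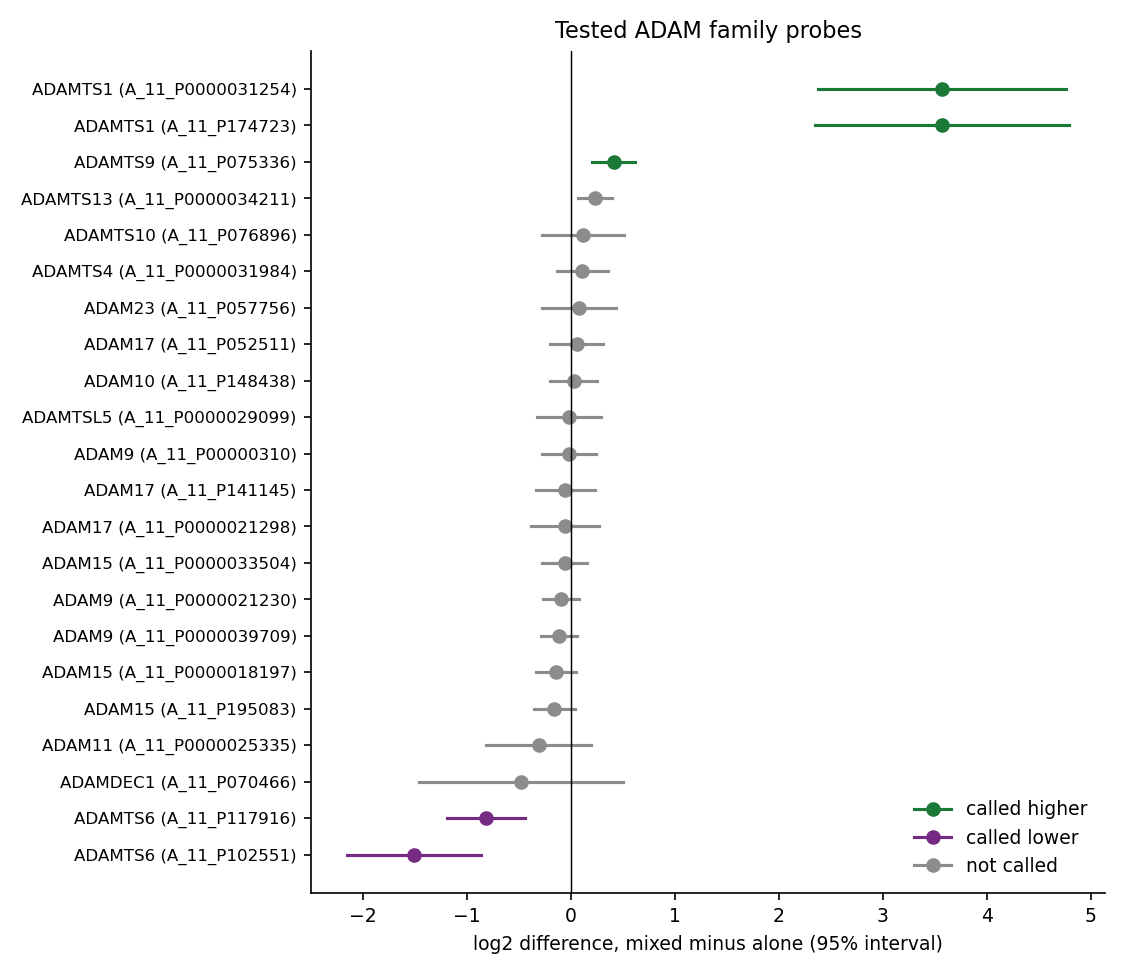
Log2 difference, mixed minus alone, of the 22 tested probes with its 95% interval from limma, ordered by size. The 2 ADAMTS1 probes lie at 3.57, ADAMTS9 at 0.41 and ADAMTS6 at -0.82 and -1.51, and the probes in grey, which were not called, lie between -0.48 and 0.23.

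The sheddases were measured on all arrays. For ADAM10, which sheds Notch receptors and cadherins, the intensity was 118.9, 139.7 and 140.8 in cells alone and 144.1, 125.0 and 119.8 in mixed culture. The highest and the second-lowest of these 6 values were both mixed arrays, and the groups overlapped. The log2 difference was 0.03 (SE 0.09, adjusted p = 0.865, limma), with a 95% interval of -0.20 to 0.26.
ADAM17, also called TACE for its shedding of TNF, had 3 probes, all assigned to NM_001286868. The first, A_11_P141145, read 1555, 1368 and 1275 in cells alone and 1389, 1337 and 1139 in mixed culture. The second, A_11_P052511, read 192.5, 185.1 and 171.6 against 197.8, 194.9 and 154.3. The ranges of the groups overlapped at both probes. At the third, A_11_P0000021298, the values were 57.8, 58.3 and 45.3 against 51.8, 56.3 and 40.7. The log2 differences of the 3 probes were -0.05, 0.05 and -0.05 (adjusted p = 0.798, 0.765 and 0.822, limma). Their 95% intervals together ran from -0.38 to 0.31, and a difference within that range could not be resolved with these arrays.
For ADAM9, a widely expressed sheddase, the 3 probes differed by -0.02, -0.10 and -0.11 (adjusted p = 0.912, 0.402 and 0.334, limma). At the last of them, A_11_P0000039709, the intensity was 5644, 6361 and 6461 in cells alone and 5467, 5642 and 5181 in mixed culture, and every mixed array lay below every alone array after scaling. The difference was nonetheless not called.
ADAM15, found at epithelial junctions, had 4 probes, of which 3 were tested. These differed by -0.14, -0.06 and -0.16 (adjusted p = 0.278, 0.683 and 0.237, limma). The last, A_11_P195083, read 255.5, 321.4 and 274.3 in cells alone and 262.0, 243.4 and 220.9 in mixed culture, with overlapping groups. The remaining probe, A_11_P193723, was well above background on 1 alone array only.

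**Figure D3:**
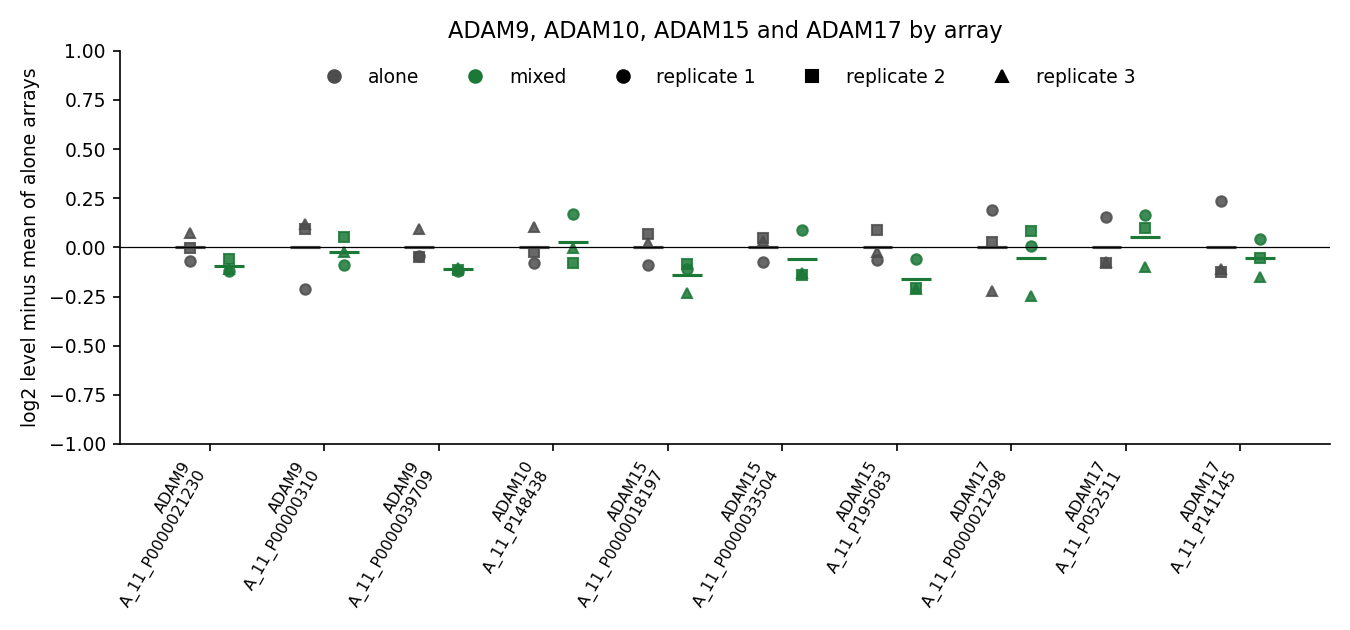
Scaled log2 level of each array minus the mean of the 3 alone arrays, for the 10 tested probes of ADAM9, ADAM10, ADAM15 and ADAM17. Points are arrays, with shape giving the replicate number, and bars are group means. All group means of mixed culture lie between -0.16 and 0.05, and the groups overlap at 9 of the 10 probes. Over the whole array, 37.2% of the 26535 probes tested had mixed and alone values that lay fully apart.

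Members were placed in groups with or without a catalytic motif by gene name, and no protein sequence was searched for the motif. Of the other members listed with a motif, ADAMDEC1, a secreted protease known from gut macrophages, read 49.3, 17.5 and 19.4 in cells alone and 18.5, 17.3 and 16.7 in mixed culture. The value of alone replicate 1 stood far above the other 5, which lay close together. Its log2 difference was -0.48 (SE 0.41, adjusted p = 0.465, limma). In all, 0 of the 11 tested probes of this group were called, against 11.2% of all tested probes. At an unadjusted p under 0.05 there were 0 by limma, against 8343 of all 26535 tested, and 0 by the methods' t-test, against 7313.
ADAM11 and ADAM23 lack the catalytic motif and are known as binding partners of LGI proteins at synapses. ADAM11 read 2771, 5281 and 3284 in cells alone and 2382, 3212 and 2861 in mixed culture, with overlapping groups (log2 difference -0.31, SE 0.21, adjusted p = 0.358, limma). For ADAM23 the tested probe, A_11_P057756, differed by 0.08 (SE 0.15, adjusted p = 0.755). Both genes were well above background on all 6 arrays at these probes.
Among the other secreted enzymes, ADAMTS13, which cuts von Willebrand factor, read 24.8, 29.2 and 26.2 in cells alone and 31.5, 30.4 and 28.0 in mixed culture. The log2 difference, 0.23 (SE 0.07, 95% interval 0.07 to 0.40), did not pass the adjustment (adjusted p = 0.0718, limma), although after scaling every mixed array lay above every alone array. ADAMTS10, which acts on fibrillin fibres, differed by 0.11 (SE 0.17, adjusted p = 0.680). The aggrecanase ADAMTS4 read 373.4, 468.6 and 343.3 in cells alone and 419.9, 436.0 and 359.3 in mixed culture, a difference of 0.11 (SE 0.10, adjusted p = 0.507). ADAMTSL5 was the tested member of the ADAMTS-like group and differed by -0.02 (SE 0.13, adjusted p = 0.943).
ADAMTS5, another aggrecanase, is the neighbour of ADAMTS1 on chromosome 31. Its probe, chr31:22249095-22249154 on the minus strand, lies 77.9 kb from the nearer ADAMTS1 probe. The intensity was 10.3, 26.7 and 14.9 in cells alone and 9.6, 19.5 and 13.1 in mixed culture. It was well above background on 2 alone arrays and 1 mixed array, too few for a test, and no mixed value exceeded the highest alone value.

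Detection differed between the groups of the family. Of its 43 probes, 20 (46.5%) were well above background on all 6 arrays, against 58.6% of all probes, and 18 on none of them, against 31.3% of all. Among the ADAM members listed with a catalytic motif, 11 of 15 probes were well above background on all arrays. The ADAM members without it had 2 of 7 and the proteoglycanases 3 of 6. Of the remaining ADAMTS enzymes 3 of 8 were detected on all arrays, and of the ADAMTS-like probes 1 of 5.
Both probes for enzymes that trim procollagens, ADAMTS2 and ADAMTS14, were not well above background on any array. The same held for ADAM7, ADAM18 and ADAM32, known mainly from the male reproductive tract, as for ADAM19 and ADAM21. On the secreted side these genes were ADAMTS7, ADAMTS16, ADAMTS17, ADAMTS18, ADAMTS20, ADAMTSL2 and ADAMTSL3. A probe in this range gives an upper bound on the signal and not an absence of the transcript. No member was detected on all arrays of one group and on none of the other.

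**Figure D4:**
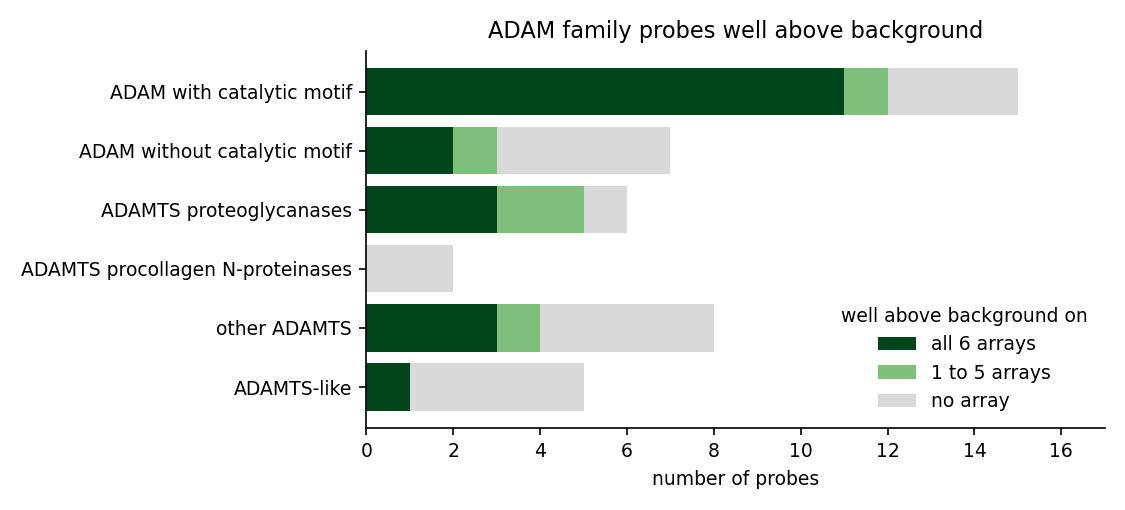
Number of probes for each group of the family that were well above background on all 6 arrays, on 1 to 5 arrays or on no array. ADAM members listed with a catalytic motif have the most probes and the largest number detected on all arrays, 11 of 15, and the 2 probes for procollagen N-proteinases were detected on no array.

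Partners and substrates of the proteases were taken from lists of 73 genes, of which 61 were on the array and 83 of their 122 probes could be tested. Of these, 1 was called higher and 7 lower, together 9.64%, against 11.2% of all tested probes. The median log2 difference was -0.09, against -0.00 over all tested probes. At an unadjusted p under 0.05 there were 26 of the 83, against 8343 of all 26535 tested (limma). With the replicate number as a block 14 were called, and 0 when alone replicate 2, alone replicate 3, mixed replicate 2 or mixed replicate 3 was left out, with 18 to 22 at an unadjusted p under 0.05 (limma).
Of the inhibitors (median log2 difference -1.13), 0 of 7 probes were called by limma, 4 with an unadjusted p under 0.05, and 0 by the methods' t-test at that level. Over all 26535 tested probes, 8343 had an unadjusted p under 0.05 by limma and 7313 by the methods' t-test. The 4 inhibitor probes were those of TIMP3, the inhibitor of ADAM17, ADAM10 and ADAMTS proteases, which is described here after its values were seen. They differed by -1.13 to -1.60 with adjusted p of 0.0752 to 0.0965 (limma). At the probe A_11_P142403 the intensity was 2137, 7810 and 7133 in cells alone and 1188, 1977 and 1589 in mixed culture. The groups did not overlap at 3 of the 4 probes, all of 1 gene, against 37.2% of all tested probes. Alone replicate 1 lay well below the other alone arrays. With the replicate number as a block all 4 TIMP3 probes were called (adjusted p = 0.0313 to 0.0361, limma), as they were without alone replicate 1 (adjusted p = 0.00534 to 0.0202), and normexp background correction called A_11_P142403 (adjusted p = 0.0472). TIMP1 differed by 0.05 and 0.02 at its 2 probes.
Among the proteins that mature or carry the proteases (median 0.12), 1 of 21 probes was called. This was PCSK5, a proprotein convertase, with 214.6, 272.3 and 274.0 in cells alone and 313.4, 362.9 and 311.6 in mixed culture (log2 difference 0.45, SE 0.10, adjusted p = 0.0377, limma). The call was lost under spike-in scaling (adjusted p = 0.276) and without mixed replicate 1 (adjusted p = 0.0609).
Of the membrane proteins known to be shed (median -0.18), 6 of 28 probes were called, all lower (21.4%, against 5.72% of all tested probes called lower). They belong to 4 genes, and 3 of them are probes of CDH2. The EGF receptor ligand EREG read 1303, 1427 and 1368 in cells alone and 811.5, 822.3 and 742.5 in mixed culture, a difference of -0.72 (SE 0.06, adjusted p = 0.0103, limma). CD44, a receptor for hyaluronan, read 1047, 1453 and 1431 against 759.1, 731.8 and 668.5, a difference of -0.78 (SE 0.11, adjusted p = 0.0183). Both genes had groups that were clearly apart. CDH2, or N-cadherin, fell by 1.25 and 1.49 on the log2 scale at 2 probes (adjusted p = 0.0434 and 0.0231). The remaining CDH2 probe was well above background on the 3 alone arrays and no mixed array. Its fitted log2 difference was -1.77 (adjusted p = 0.0484, limma), and with its dim values raised it was 1.34-fold lower in mixed culture. This call was lost under quantile normalization (adjusted p = 0.0649, limma) and without alone replicate 1 (adjusted p = 0.0715). It was also lost under normexp background correction, where the difference was -0.22 (adjusted p = 0.0750). For the proteoglycan SDC4 1 of its 2 probes was called, at -0.44 (adjusted p = 0.0364), with the other at -0.33 (adjusted p = 0.0716). The SDC4 call was lost with the replicate block (adjusted p = 0.0626) and under spike-in scaling (adjusted p = 0.0629).
In the matrix list (median -0.12) 1 of 27 probes was called, COL2A1 at -1.36 (SE 0.34, adjusted p = 0.0494, limma). This probe was well above background on the 3 alone arrays and 1 mixed array, and with its dim values raised it was 2.01-fold lower. The call was lost under spike-in scaling (adjusted p = 0.0646) and without mixed replicate 1 (adjusted p = 0.125). Its intensity was 16.0, 37.6 and 38.1 in cells alone and 8.8, 14.2 and 9.4 in mixed culture. The 2 probes of VCAN, the versican that ADAMTS1 and ADAMTS9 cut, differed by -0.42 and -0.23 without passing the test (adjusted p = 0.206 and 0.237). The array measures RNA, so none of these values gives the amount or the cutting of a protein.

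The calls of the family were compared under each other way of processing. All 5 were made with quantile normalization, with normexp background correction and with the deposited log2 table. With no filter on dim probes 0 of 43 probes were called by limma, 10 with an unadjusted p under 0.05, and the methods' t-test gave 0 after adjustment and 6 without it. Over all probes no filter gave 12 called, and the methods' t-test gave 828 and 7313. The family count was also 0 when alone replicate 2, alone replicate 3, mixed replicate 2 or mixed replicate 3 was left out, with 6 probes at an unadjusted p under 0.05 in each case. With these arrays left out the whole array gave 24, 7, 9 and 12 called probes in place of 2978. Wherever they were tested, the 5 probes called in the main fit kept their direction in each of the settings compared, and ADAMTS1 was the gene with the highest difference among them.

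**Figure D5:**
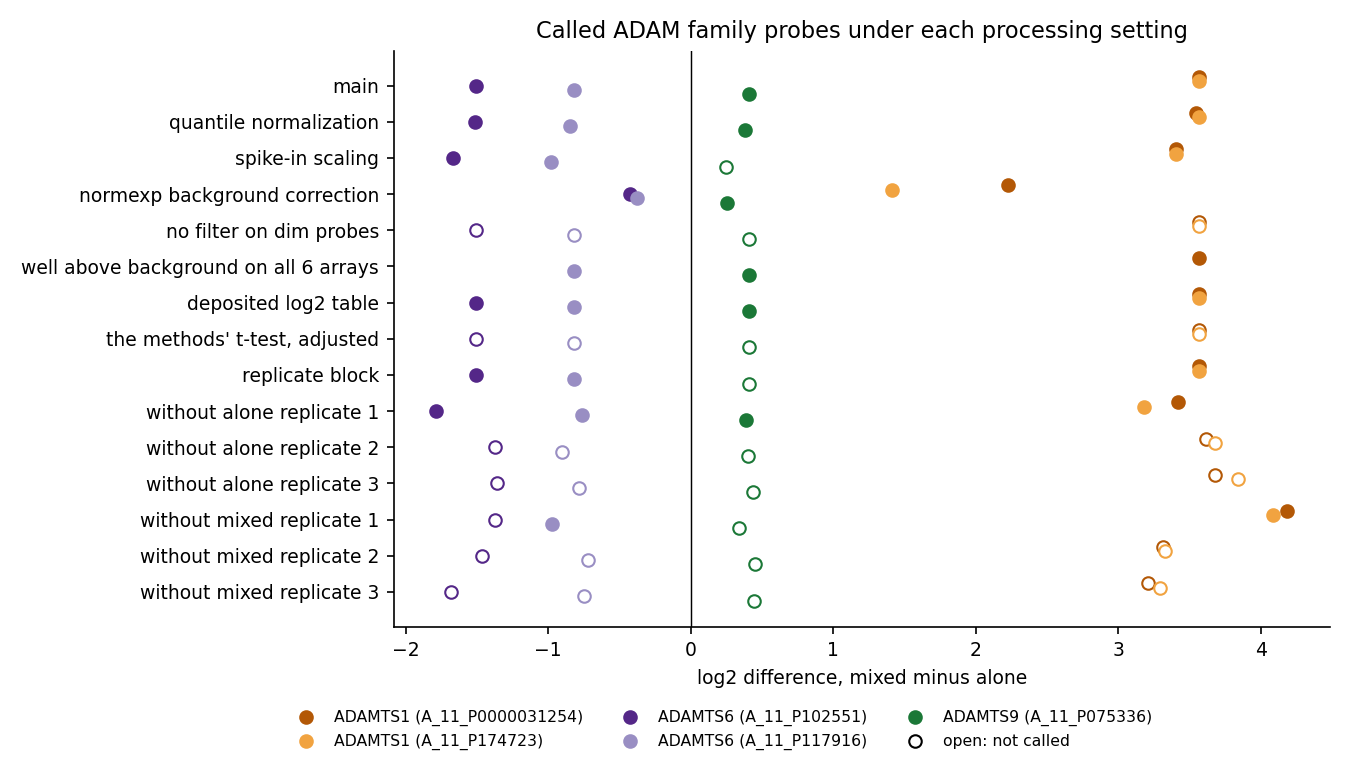
Log2 difference, mixed minus alone, of the 5 called probes under each processing setting, with filled points for an adjusted p under 0.05 and open points otherwise. ADAMTS1 stays above the other genes in each setting, at 2.23 and 1.41 under normexp background correction and between 3.18 and 4.19 with single arrays left out.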

How the data were processed

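RNA of sorted RasV12 cells, 3 samples cultured alone and 3 from mixed culture, was measured on 1 array for each sample. The authors deposited, for each array, processed signal intensity for every spot from Agilent Feature Extraction 10.10.1.1, corrected for background, together with a table of log2 values. Each column of the deposited log2 table equalled the log2 processed signal minus the array's 75th percentile, apart from a constant, within 0.001, for the 26529 probes it lists. The deposited headers give the build as canFam3.
Outlier-flagged and control spots were dropped, after which 0 to 5 probes of an array had no value. Spots of a probe were averaged as log2 values, minus the array's 75th percentile. Probes that were well above background on all 3 arrays of one group or of both (26535 of 43603) were tested with lmFit and eBayes (limma 3.58.1, R 4.3.3), mixed minus alone, as a two-sided test, and called at an adjusted p (Benjamini-Hochberg) under 0.05. Whether the samples came from separate cultures is not given in the sources used here, so p-values measure the spread between these samples, which may be technical. With 3 against 3, an exact permutation test of 1 probe cannot go below p = 0.1.
The members and gene lists were chosen with earlier results of these data known. Genes named with values were the called members, the ADAM9, ADAM10, ADAM15, ADAM17 and ADAMTS1 probes, the 5 highest and 5 lowest members by difference, members whose probes differ in call or sign, and called probes of the lists of partners and substrates.
Replicate numbers are shared by the groups and are the array's position on its slide. After group means were removed, same-numbered arrays correlated at 0.349, 0.162 and 0.296 and others at -0.329 to 0.238. Each same-numbered value was over 0.1, and a fit with the number as a block was an alternative. Alone replicate 2 correlated more with mixed replicate 3 (0.238) than with mixed replicate 2 (0.162), so these values do not establish that the samples pair by number. Paired cultures and an effect of slide position cannot be told apart here.
On simulated data with 26529 probes, of which 200 were changed, the fit recovered 72% of 2-fold and 95% of 4-fold changes, with 10 false calls. The simulated noise was independent between probes and held no slide effect, so these figures do not give the error rate of the real comparison. Tables and plots were made with Python 3.11.15, pandas 2.3.3, numpy 2.4.6 and matplotlib 3.10.9.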

Additional observations from a re-analysis of the deposited data

How the results depend on the processing

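Precision is limited by having 3 arrays in each group, and by signal near background for ADAMTS1 in cells alone and ADAMTS6 in mixed culture. Slide could not be fitted as a block, because no slide carried both groups. The 5 called members (3 higher, 2 lower) became 3 (1 of them lower) when only probes detected on all 6 arrays were tested, and 0 with no filter and with the methods' t-test after adjustment, in both directions. With single arrays left out they ran from 0 to 5 (0 to 3 higher, 0 to 2 lower). The 8 called partners and substrates became 14 under normexp background correction, 14 with the replicate block, 0 with no filter, 1 and 17 by the methods' t-test adjusted and unadjusted, and 0 to 23 with single arrays left out. Over all probes, 2978 became 935 under spike-in scaling, which shifted the median of all tested probes by -0.16, 12 with no filter, 828 and 7313 by the methods' t-test adjusted and unadjusted, and 7 to 7335 with single arrays left out. Except for ADAMTS9, the replicate block changed no call of a member.
The log2 difference of ADAMTS1 was 3.57 at both probes with no filter (adjusted p = 0.0718 and 0.0745, limma) and in the methods' t-test (adjusted p = 0.0672 and 0.0694), and ran from 3.21 to 4.19 and from 3.18 to 4.08 with single arrays left out. Over all alternatives the adjusted p of the first probe reached 0.0788 and that of the second 0.0845. Differences near 0 changed sign. ADAM10 was at -0.0038 under quantile normalization and -0.13 under spike-in scaling, and at -0.042 to 0.082 with single arrays left out (below 0 without alone replicate 1, -0.012, and without mixed replicate 1). ADAM17 at A_11_P0000021298 was at 0.032 under normexp background correction and at -0.16 to 0.045 with single arrays left out (0.043 without alone replicate 1). At A_11_P052511 it was at -0.11 under spike-in scaling and ran from -0.00093 (without mixed replicate 1) to 0.13, and at A_11_P141145 from -0.11 to 0.066 (without alone replicate 1). ADAM9 at A_11_P00000310 was at 0.0071 under normexp background correction and ran from -0.13 to 0.038 (0.025 and 0.013 without alone replicate 2 and mixed replicate 1). None of these was called, and the cause was not tested.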

Other observations

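The array carried 16 further probes that its description column assigns to an ADAM or ADAMTS gene under another name, such as an accession, and that the choice by gene name left out. Of these, 7 could be tested and 0 were called (limma), against 11.2% of all tested probes. At an unadjusted p under 0.05 there was 1, against 8343 of all 26535 tested (limma). The 7 differed by -0.44 to 0.20 on the log2 scale. A second probe described as ADAM10 differed by -0.02 (adjusted p = 0.911, limma), close to the 0.03 of the named ADAM10 probe. The 2 probes described as similar to ADAM22, which lacks the catalytic motif, differed by -0.17 and -0.19. A probe described as the short form of ADAM9 differed by -0.44 (adjusted p = 0.122). Probes described as ADAMTSL4 and ADAMTSL1 differed by -0.22 and -0.19, and one described as ADAMTS12 by 0.20. Probes described as ADAM2, ADAMTS8 and ADAMTS19 were not well above background on any array.
The second ADAM23 probe, A_11_P183668, read 33.8 in alone replicate 1 and 2.1 to 3.4 on the other 5 arrays, where it was not well above background. The same array had the highest ADAMDEC1 value, 49.3. Both were picked out after their values were seen.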
